A study of Mus musculus with 10 samples.

Results

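The genes Cdkn2a, Cdkn2b, Trp53, Cdkn1a, Cdkn1b and Mdm2 act in senescence and in the p53 response, both of which hold back the conversion of fibroblasts into pluripotent cells. These 6 of 21887 protein-coding genes were chosen by name, and the open chromatin around them was read from ATAC-seq peak lists, in which a transposase marks accessible DNA. All peaks from 50 kb before to 50 kb after each gene were taken from each of 10 lists, 2 libraries at each of 5 stages. Merged over the lists, they formed 97 of the 208851 regions of the series, and 12 of the 97 lie in the windows of both Cdkn2a and Cdkn2b, which are neighbours. The genome is mm10, and gene positions are those of RefSeq for GRCm38.p6: chr4:89274473-89294619 for Cdkn2a and chr4:89306289-89311032 for Cdkn2b (both minus strand), chr11:69580348-69591873 for Trp53, chr17:29090979-29100722 for Cdkn1a and chr6:134920401-134925525 for Cdkn1b (plus strand), and chr10:117688875-117710758 for Mdm2 (minus strand).

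The starting cells (MEF) were embryonic fibroblasts of C57BL/6 x 129 mice with OKSM (the factors Oct4, Klf4, Sox2 and Myc) at Col1a1 and M2rtTA, its doxycycline-dependent activator, at Rosa26, kept without doxycycline. DAY3, DAY6 and DAY9 cells had the same genotype and had received 1 ug/ml doxycycline and 50 ug/ml ascorbic acid for 3, 6 and 9 days. DAY3 cells were a bulk population and DAY6 and DAY9 cells were sorted for SSEA1, a surface marker of cells on the way to pluripotency, so sorting cannot be told apart from the step from DAY3 to DAY6. ESC is a single embryonic stem cell line, V6.5, of the same strain background but without the cassette, grown unsorted on irradiated feeder cells and without doxycycline.

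Cdkn2a gives 2 proteins from separate starts and different reading frames. Ink4a blocks the kinases Cdk4 and Cdk6, so that the retinoblastoma protein keeps the cell cycle at rest, and Arf binds Mdm2 and so protects p53. Cdkn2b encodes Ink4b, a second inhibitor of the same kinases. Trp53 encodes p53, a transcription factor stabilised by stress, Mdm2 is the ligase that marks p53 for breakdown, and Cdkn1a encodes p21, the p53 target that inhibits cyclin-dependent kinases. Cdkn1b encodes p27, a related inhibitor that acts in quiescent cells. Loss of p53, p21 or the Cdkn2a products is known to raise the yield of reprogramming.

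The DNA before 5 starts that are described below is shown: the upstream and downstream starts of Cdkn1a, the Arf and the Ink4a start of Cdkn2a, and a downstream start of Gpr19 that lies in the Cdkn1b window. The upstream Cdkn1a start and the Gpr19 start had a peak at some stages only, and the others had one in all 10 libraries. Each sequence holds the 250 bases before the start, read 5′ to 3′ on the strand of the gene, from RefSeq for GRCm38.p6. Capitals mark motif matches.
Cdkn1a, upstream start, chr17:29090729-29090978, plus strand: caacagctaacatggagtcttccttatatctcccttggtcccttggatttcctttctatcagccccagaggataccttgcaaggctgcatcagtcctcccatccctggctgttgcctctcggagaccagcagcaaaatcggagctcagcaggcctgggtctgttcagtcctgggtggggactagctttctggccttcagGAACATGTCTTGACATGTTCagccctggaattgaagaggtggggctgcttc
Cdkn1a, downstream start, chr17:29093519-29093768, plus strand: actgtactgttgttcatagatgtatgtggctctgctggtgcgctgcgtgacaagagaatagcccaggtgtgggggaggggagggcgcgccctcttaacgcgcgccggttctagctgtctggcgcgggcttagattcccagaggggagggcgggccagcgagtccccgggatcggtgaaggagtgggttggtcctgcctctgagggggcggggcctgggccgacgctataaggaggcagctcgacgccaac
Cdkn2a, upstream (Arf) start, chr4:89294620-89294869, minus strand: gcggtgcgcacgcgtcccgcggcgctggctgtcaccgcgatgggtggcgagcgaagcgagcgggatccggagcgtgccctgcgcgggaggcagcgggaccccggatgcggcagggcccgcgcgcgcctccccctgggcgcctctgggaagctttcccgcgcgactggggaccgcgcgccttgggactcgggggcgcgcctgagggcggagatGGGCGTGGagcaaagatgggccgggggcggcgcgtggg
Cdkn2a, downstream (Ink4a) start, chr4:89282193-89282442, minus strand: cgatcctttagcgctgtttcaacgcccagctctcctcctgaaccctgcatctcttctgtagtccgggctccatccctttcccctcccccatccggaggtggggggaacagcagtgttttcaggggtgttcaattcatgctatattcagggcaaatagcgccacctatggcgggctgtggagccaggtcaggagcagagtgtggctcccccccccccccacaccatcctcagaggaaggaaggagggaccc
Gpr19, downstream start, chr6:134887862-134888111, minus strand: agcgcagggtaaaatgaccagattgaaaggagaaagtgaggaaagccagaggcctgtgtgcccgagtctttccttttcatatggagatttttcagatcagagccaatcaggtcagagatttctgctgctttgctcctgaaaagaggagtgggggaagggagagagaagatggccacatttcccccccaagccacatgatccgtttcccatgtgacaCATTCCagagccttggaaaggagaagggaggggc

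In the Cdkn1a sequence the capitals are a match to the p53 response element, 20 bases from chr17:29090928-29090947 that begin 51 bases before the start. A match was 2 adjoining half-sites with the C and G of both cores kept and at most 1 other mismatch, a tolerance chosen after the sequence was seen. Of 32851 start sequences of the same length, 19 (0.0578%) held such a match. The other 5 motifs were searched on both strands, and the share of all start sequences that held each was 6.75% for TGANTCA (AP-1), 15.9% for GGGNGTGG (Klf), 6.02% for CACGTG (E-box), 12.6% for GGAATG (Tead) and 11.0% for ATGNNAAT (Oct). Over the 8 listed starts of the 6 genes, the one further match was the Klf motif in capitals before the Arf start, 38 bases upstream of it. The capitals before the Gpr19 start are the Tead motif on the other strand. A match says only that these letters occur there.

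Read totals were not used here, so depth was read from the lists themselves. They held 45497 to 88980 peaks each, and the commonest background pileup, recovered from the deposited fold and −log10 p-value, ran from 2.327 in DAY6 replicate 2 to 8.322 in MEF replicate 2. No list held a −log10 p-value under 5, and the lists kept 58.2% (DAY6 replicate 2) to 75.9% (DAY9 replicate 1) of the numbers in their peak names. A missing peak therefore means either a signal below that limit or a called peak dropped before deposit, and the lists do not tell these apart. At the background pileup the smallest fold that could be listed lay between 2.57 (MEF replicate 2) and 3.61 (DAY6 replicate 2). Summit pileups of the DAY3 pair, and of the DAY9 pair, were close to counting noise, with noise ratios of 1.33 and 1.42 where 1 is chance, against 3.62 in DAY6, 9.47 in ESC and 11.4 in MEF. The means of these pairs therefore enter as single samples, and 8 samples remained. A marker's peak had to lie within 1 kb of a listed start. Where no start is listed, the gene with 1 kb on either side was used. A start was listed for 6 of 10 fibroblast and 5 of 9 pluripotency markers. For all genes with a listed start, the shares with a peak are given below. Of the fibroblast markers, 9 of 10 had a peak in both MEF libraries and 5, 5, 4 and 5 at DAY3, DAY6, DAY9 and ESC. Of 9 pluripotency markers 2, 2, 7, 8 and 9 had one in the same order of stages. Lum, a fibroblast matrix gene, had no peak in any MEF library, and Nanog and Prdm14, which mark pluripotent cells, had none up to DAY6. Of 8 markers of blood, endothelial and keratinocyte cells 2, 3, 3, 4 and 4 had a peak, and of 4 trophoblast and endoderm markers 2, 1, 2, 3 and 4. Other cells in the cultures, and their part in the results, were not tested. In bulk cells, more cells with an open site and a more open site per cell cannot be told apart.

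All 6 genes had an open start at every stage. A peak lay within 1 kb of a listed start in both libraries of each stage for 6 of 6 genes, against 57.3% of 17492 genes with a listed start in MEF, 57.0% in DAY3, 60.9% in DAY6, 63.8% in DAY9 and 63.3% in ESC. The Arf start of Cdkn2a, at base 89294619 of chromosome 4, had the tallest of these peaks in 9 of 10 libraries. Its fold enrichment, the authors' ratio of summit height over the local background, was 12.5 and 7.53 at MEF, 10.3 and 10.0 at DAY3, 13.5 and 16.3 at DAY6, 15.8 and 15.3 at DAY9, and 15.0 and 12.0 at ESC. The Ink4a start, at base 89282192, had folds of 8.77 and 8.26 at MEF, 7.65 and 9.01 at DAY3, 7.38 and 11.3 at DAY6, 10.2 and 9.65 at DAY9, and 7.81 and 7.25 at ESC. Both starts of Cdkn2a thus had a listed peak in all 10 libraries. At the Ink4a start both DAY9 folds were above and both ESC folds below the MEF ones, within a range of 7.25 to 11.3 over all libraries. Folds of different lists depend on depth and are given as a description, with no test.

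At Cdkn2b (start at base 89311032 of chromosome 4) the fold was 9.81 and 7.37 at MEF, 8.75 and 8.25 at DAY3, 8.55 and 10.7 at DAY6, 10.0 and 10.0 at DAY9, and 9.87 and 10.0 at ESC. The p27 gene Cdkn1b (base 134920401 of chromosome 6) had 8.97 and 7.42 at MEF, 7.90 and 6.77 at DAY3, 11.1 and 11.9 at DAY6, 10.8 and 10.7 at DAY9, and 11.6 and 7.97 at ESC. Both kinase inhibitors were open throughout. Among the p53 genes, Trp53 (base 69580359 of chromosome 11) had its highest peak within 1 kb over the start of Wrap53, a gene that runs the other way, with folds of 9.25 and 6.59 at MEF, 6.16 and 7.51 at DAY3, 6.45 and 7.51 at DAY6, 6.97 and 7.67 at DAY9, and 6.60 and 6.36 at ESC. The peak on the Trp53 start itself, chr11:69580016-69580626, was lower, from 2.38 to 4.55, and with lists of equal length it was listed in 7 libraries, without both ESC libraries and MEF replicate 2. Mdm2 (base 117710758 of chromosome 10) had 11.5 and 7.04 at MEF, 7.22 and 6.58 at DAY3, 10.2 and 8.69 at DAY6, 11.4 and 11.0 at DAY9, and 9.12 and 9.01 at ESC. At Cdkn2b both ESC folds were above both MEF folds, and at Cdkn1b, Trp53 and Mdm2 the MEF and ESC libraries overlapped.

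**Figure D1:**
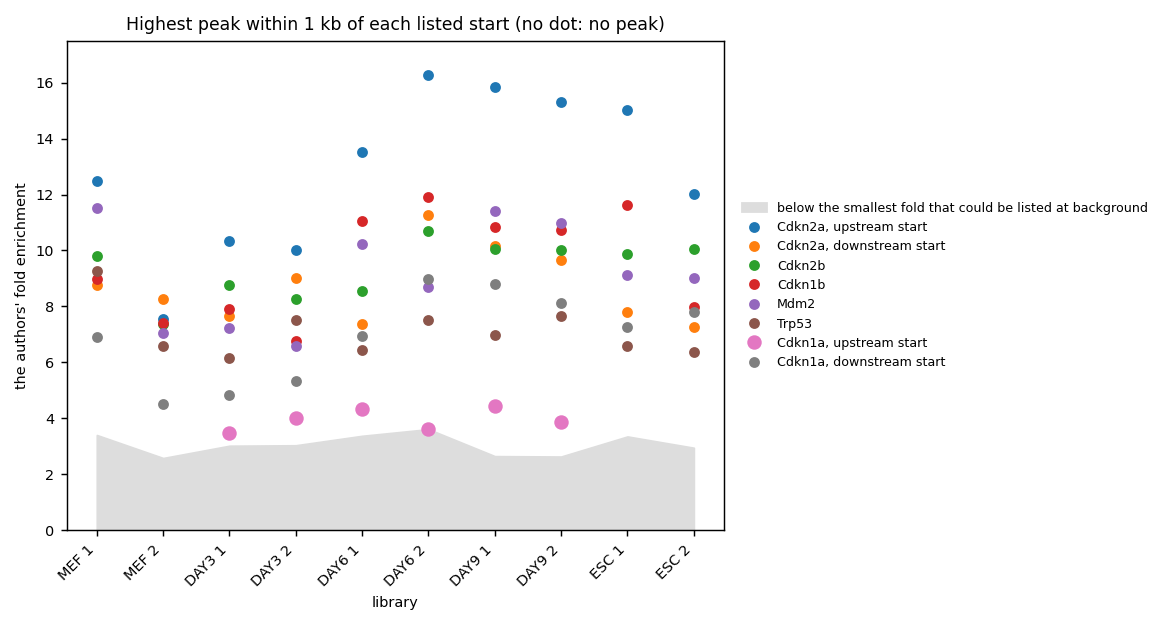
The authors' fold enrichment (vertical axis, linear) of the highest peak within 1 kb of each of 8 listed starts, in each of the 10 libraries (horizontal axis). There are 7 starts with a dot in every library, and the upstream start of Cdkn1a has dots in the 6 DAY3, DAY6 and DAY9 libraries alone, from 3.47 to 4.43. The grey area lies below the smallest fold that could be listed at a library's background pileup.

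The exception was 1 of the 2 starts of Cdkn1a. The upstream start, at base 29090979 of chromosome 17, whose sequence holds the p53 element above, had a peak in the 3 intermediate stages and in no MEF or ESC library. Its region, chr17:29090737-29091240, covers the element and the start. The fold was 3.47 and 4.01 at DAY3, 4.32 and 3.60 at DAY6, and 4.43 and 3.85 at DAY9. These peaks are low in fold, but their highest score (10 times the −log10 p-value) was 597, against median scores of 113 to 164 in the lists. The lowest of the folds is above the smallest that could be listed at the commonest background pileup in both MEF libraries (3.40 and 2.57) and both ESC libraries (3.35 and 2.94). The limit at the local background of this start was not computed. The same 6 libraries and no other had the peak when all lists had 45497 peaks and when each list was held to its higher-scoring 50%. The downstream start, at base 29093769, was open in all 10 libraries, with folds of 6.89 and 4.50 at MEF, 4.84 and 5.35 at DAY3, 6.95 and 8.99 at DAY6, 8.79 and 8.11 at DAY9, and 7.28 and 7.80 at ESC. The 2 starts of this p53 target thus differed in when they had a peak, a difference noticed in these data and not tested.

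The pattern of the upstream Cdkn1a start was rare among starts. Of 32851 listed start windows (250 bases before to 50 after), 52 (0.158%) had a peak in each of the 6 intermediate libraries and none in MEF or ESC. Open in all 10 libraries were 11178 windows (34.0%), and 14632 (44.5%) had no peak in any. Of the 19 windows with a p53 element by the rule above, 1 had the intermediate pattern, and that one is Cdkn1a, so the element and the pattern went together in no other window. The start sequences also differed in CpG content, as the ratio of observed to expected CpG dinucleotides, which is high in CpG islands. The ratio was 0.110 before the upstream Cdkn1a start and 0.771 before the downstream one. Medians were 0.786 over the windows open in all 10 libraries, 0.167 over the 52 with the intermediate pattern, 0.180 over those with no peak in any library and 0.373 over all. A low ratio was thus shared by the intermediate pattern and the windows without a peak. Within Cdkn2a it was 1.08 before the Arf start and 0.316 before the Ink4a start, both of which were open throughout.

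The 97 regions were then followed by stage. In all 10 libraries 16 had a peak (background: 7.35% of all regions). Of these 16, 12 covered a listed start, 7 of them a start of the 6 genes and 7 a start of another gene, with 2 counted in both. The neighbours were Gm12610 (also called ANRIL), a noncoding RNA that starts beside Arf and runs through Cdkn2b, Gpr19, 2810454H06Rik and Lockd around Cdkn1b, Wrap53 and Fxr2 around Trp53, and Slc35e3 at Mdm2. The other 4 were chr4:89302910-89304136 between Cdkn2a and Cdkn2b, chr17:29080444-29081553 before Cdkn1a, chr11:69581015-69582381 inside Trp53 and chr11:69605403-69606530 at Atp1b2. Regions seen in 1 library alone made up 27.8% of the 97 and 37.9% of all regions.

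Between the end stages, 13 regions were gained, with a peak in both ESC libraries and neither MEF library (background 15.9%), and 8 were lost, the reverse (background 11.1%). Another 8 were transient, absent from the MEF and ESC lists and present in both libraries of at least 1 intermediate stage (background 9.61%). Of these, 2 were present in this way at all 3 intermediate stages (background 1.69%), the upstream Cdkn1a start and one region near Mdm2. The remaining 52 met none of these rules. As shares of the 97, gained (13.4%) and lost (8.25%) regions were below the background. The highest fold of a region had a median of 11.0 in the regions open in all libraries, 5.15 in the gained, 7.13 in the lost and 4.80 in the transient ones. Of the 29 gained, lost and transient regions, 3 covered a listed start, those of Cdkn1a, Gpr19 and Sat2.

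**Figure D2:**
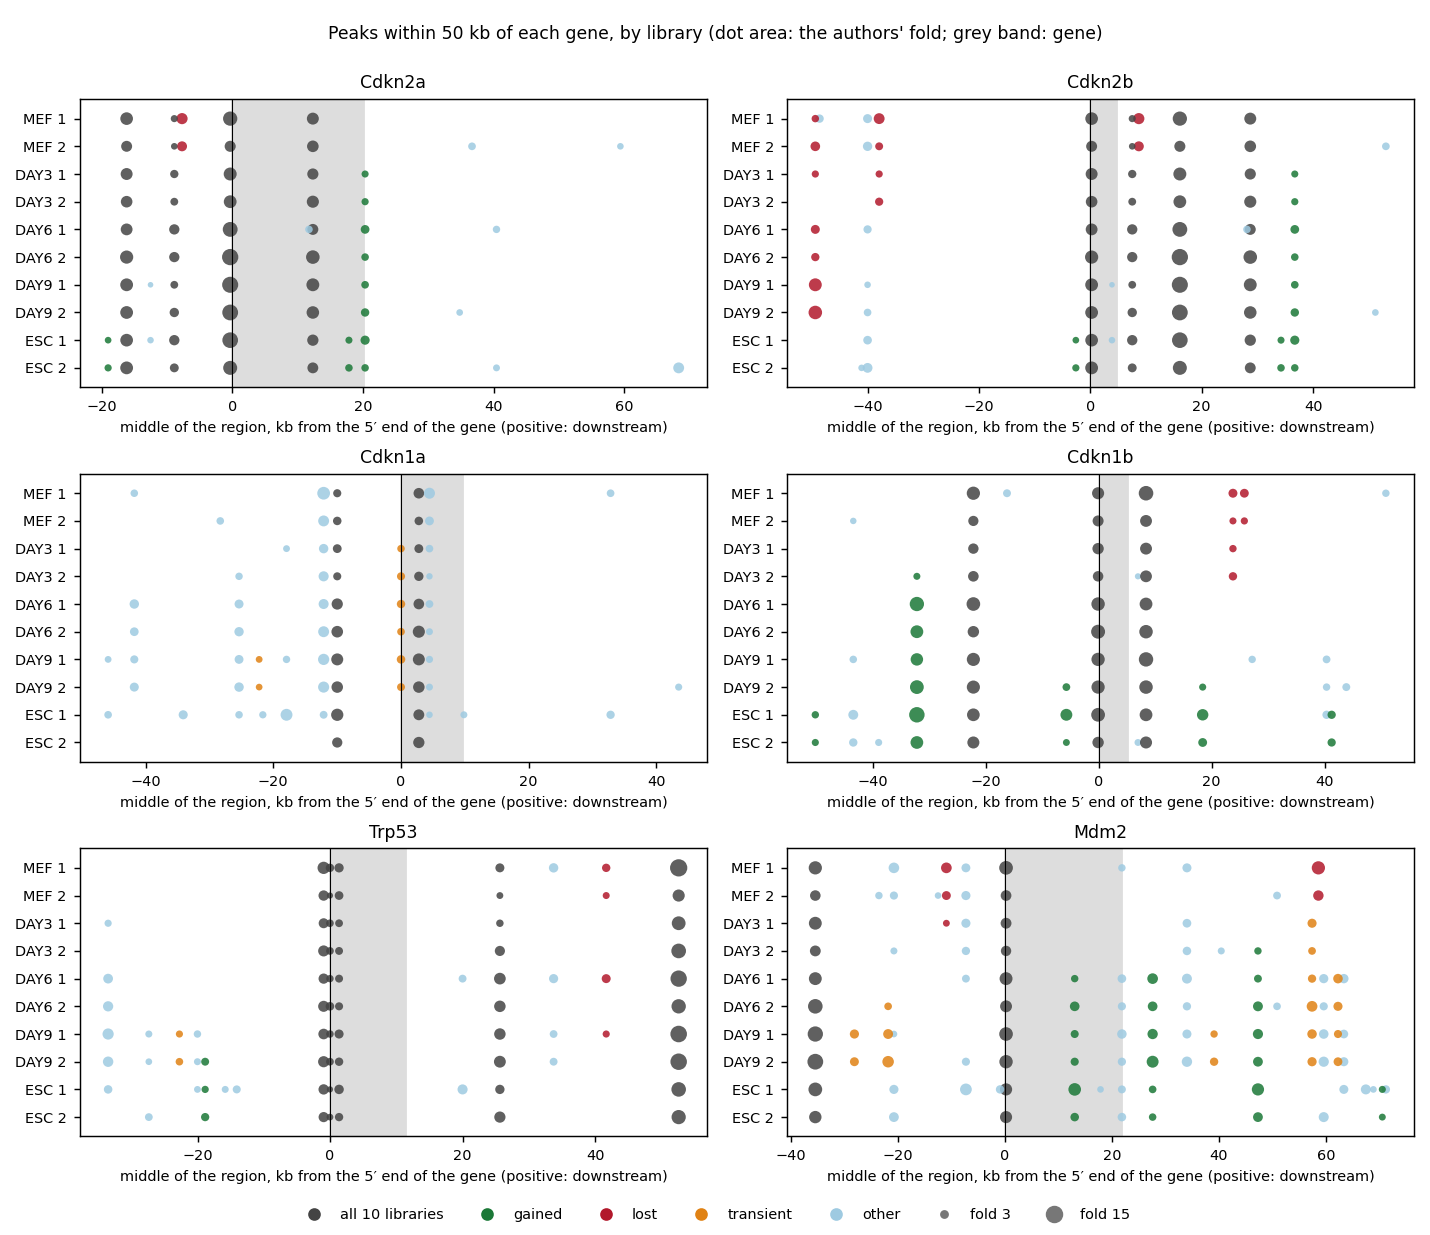
Every region in the 6 gene windows, by library (rows) and by the distance of its middle from the 5′ end of the gene in kb (horizontal axis). Dot area follows the authors' fold, colour gives the class of the region and the grey band is the gene. Of the 16 regions present in all 10 libraries (dark), 12 cover a listed start, and 26 of the 29 gained, lost and transient regions cover none.

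At the Cdkn2a and Cdkn2b locus, 3 regions were lost and 3 weak regions gained in the full lists, around starts that had a peak at every stage. A region between the genes, chr4:89302028-89302648 in Gm12610, had a peak in MEF alone, with folds of 7.63 and 6.11. It lies next to the constant region chr4:89302910-89304136, whose fold was 3.10 and 2.69 at MEF, 4.23 and 3.76 at DAY3, 6.51 and 6.47 at DAY6, 3.71 and 5.38 at DAY9, and 6.55 and 4.86 at ESC. In these neighbouring regions the MEF libraries were the only ones listed in the first and the lowest in the second. Before Cdkn2b, 38.0 kb from its 5′ end, chr4:89348724-89349292 had folds of 7.25 and 3.86 at MEF and 3.17 and 4.15 at DAY3, and no later peak.

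A second distal region, chr4:89360166-89360799, 49.5 kb before Cdkn2b, was open in MEF and absent from ESC but was highest between them. Its fold was 3.40 and 5.69 at MEF, 3.17 in DAY3 replicate 1 with no peak in replicate 2, 4.94 and 4.21 at DAY6, and 10.2 and 11.2 at DAY9. Both DAY9 libraries were above every other. Of the 3 gained regions, chr4:89273126-89275488 spans the 3′ end of Cdkn2a. It had a peak in every library from DAY3 on, with folds of 3.08 and 3.17 at DAY3, 4.70 and 3.51 at DAY6, 3.59 and 4.34 at DAY9, and 5.15 and 3.45 at ESC. The others, chr4:89276461-89277102 inside Cdkn2a (3.05 and 3.47) and chr4:89313499-89313815 before Cdkn2b (2.73 and 3.20), were listed in ESC alone. All 3 gained regions were weak, with no fold above 5.15. When all lists had 45497 peaks, none of the 3 kept a peak in both ESC libraries: the first kept the one in ESC replicate 1, the second none and the last the one in ESC replicate 2. The lost regions chr4:89302028-89302648 and chr4:89348724-89349292 kept both MEF peaks, while chr4:89360166-89360799 kept the one in MEF replicate 2 alone. The constant region chr4:89302910-89304136 then had a peak in 7 libraries and in neither MEF library.

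Around Cdkn1b, 5 regions were gained and 2 lost. The strongest gain, chr6:134887588-134888835, lies 32.2 kb before Cdkn1b, covers the downstream starts of Gpr19, an orphan receptor gene, and contains the sequence above. No MEF library had a peak there, and 1 of the DAY3 libraries had one with a fold of 3.03. The fold was 12.5 and 10.0 at DAY6, 9.51 and 11.6 at DAY9, and 14.7 and 9.94 at ESC. The upstream starts of Gpr19, in chr6:134897595-134898835, had a peak in all 10 libraries, with folds from 6.39 to 11.4, so here too a gene had one constant start and one that changed. Of the other gained regions, chr6:134914464-134914908 and chr6:134938527-134939111, had a peak in DAY9 replicate 2 (3.69 and 3.11) and in both ESC libraries, at 8.69 and 2.94 in the former and 8.03 and 4.80 in the latter. The last 2, at 50.2 kb before and 41.3 kb after the 5′ end, were listed in ESC alone with folds of 3.12 to 4.20. With lists of equal length, the region over the Gpr19 starts and chr6:134938527-134939111 kept both ESC peaks, and the other 3 gains did not.

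The lost regions of Cdkn1b lie side by side in Lockd, a noncoding RNA gene downstream. In chr6:134943846-134944517 the fold was 4.92 and 3.06 at MEF and 3.33 and 4.31 at DAY3, and in chr6:134945916-134946484 it was 4.80 and 3.18 at MEF, with no later peak in either. The first closed after DAY3 and the second before it, as far as peaks were listed. The start of Lockd, in chr6:134928125-134929453, was open in all libraries, from 8.54 to 13.0.

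The Cdkn1a window had no gained or lost region. Besides the upstream start it held 1 transient region, chr17:29068620-29068910 in Trp53cor1, with folds of 2.85 and 2.76 at DAY9 and no peak with lists of equal length. Trp53cor1, or lincRNA-p21, is a noncoding RNA gene upstream of Cdkn1a that p53 is known to induce. The region at its end nearest Cdkn1a, chr17:29078200-29079535, had folds of 9.97 and 7.32 at MEF, 5.44 and 6.27 at DAY3, 6.16 and 7.33 at DAY6, 7.74 and 7.57 at DAY9, and 3.78 in ESC replicate 1, with no peak in ESC replicate 2. Next to it, the constant region chr17:29080444-29081553 ran from 4.06 and 4.45 at MEF and 4.76 and 4.01 at DAY3 to 7.74 and 8.27 at DAY6, 8.82 and 8.12 at DAY9, and 9.21 and 6.44 at ESC. The first region was highest in MEF replicate 1, and in the second every library from DAY6 on was above every earlier one. Inside the gene, chr17:29095029-29095860 was highest in MEF, at 7.48 and 4.83, lay between 2.53 and 3.70 from DAY3 to DAY9 and at 2.66 in ESC replicate 1, and was not listed in ESC replicate 2.

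The ESC libraries disagreed at Cdkn1a. ESC replicate 1 had 11 peaks in the window and ESC replicate 2 had 2, although its list is the longest. A difference of 9 or more between these libraries occurred in 254 (1.16%) of the gene windows. The Mdm2 window had 17 and 10 peaks (a difference of at least 7 in 3.13% of windows) and the Trp53 window 11 and 7 (at least 4 in 16.3%). Without ESC replicate 2, the Cdkn1a window had 6 gained regions in place of 0, the Trp53 window 6 in place of 1 and the Mdm2 window 10 in place of 4. Without ESC replicate 1, the Cdkn1a window had 2 lost regions. The upstream Cdkn1a start had no peak in either ESC library, so leaving out either one did not change its class. As ESC replicate 2 had only 2 peaks in this window, its missing peak says less than that of replicate 1.

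Around Trp53, 1 region was gained, 1 lost and 1 transient. The lost region, chr11:69621730-69622292, covers the start of Sat2, a gene of polyamine metabolism. It had folds of 4.30 and 3.00 at MEF, and single libraries of DAY6 (4.94) and DAY9 (3.12) had a peak again. The gained region, chr11:69561104-69561877 over parts of Efnb3 and Wrap53, had 3.87 in DAY9 replicate 2 and 3.23 and 4.19 at ESC. The transient one, chr11:69557303-69557909 in Efnb3, had 3.12 and 3.53 at DAY9. With lists of equal length the gained and the transient region had no peak, and the lost one had that of DAY6 replicate 1 alone. The tallest peak of all 6 windows, chr11:69632372-69633523 at the start of Fxr2, was constant, from 9.05 to 18.3. A region 33.5 kb before Trp53, chr11:69546328-69547364 in Dnah2, had no MEF peak and folds of 3.17 in DAY3 replicate 1, 5.84 and 6.45 at DAY6, 7.69 and 6.67 at DAY9 and 4.46 in ESC replicate 1. It was thus seen in both libraries at DAY6 and DAY9 only, and met no class because of the single ESC peak.

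The Mdm2 window held 28 regions, of which 4 were gained, 2 lost and 5 transient. Of the 4 gains, 3 had peaks in both libraries from DAY6 on. Inside the gene, chr10:117697408-117697998 had folds of 3.37 and 5.71 at DAY6, 3.96 and 4.06 at DAY9, and 9.75 and 4.49 at ESC. Beyond its 3′ end, in the neighbour gene Cpm, chr10:117682537-117683730 had 6.98 and 5.77 at DAY6, 6.52 and 8.73 at DAY9, and 3.59 and 3.46 at ESC. The first was highest in ESC replicate 1, and in the second both ESC libraries were below the 4 sorted ones. Also in Cpm, chr10:117662621-117664267 had 3.35 in DAY3 replicate 2, 3.82 and 6.01 at DAY6, 6.33 and 5.90 at DAY9, and 9.20 and 5.88 at ESC. This last region alone of the 4 gains kept both ESC peaks with lists of equal length. The one inside the gene then had peaks in DAY6 replicate 2 and ESC replicate 1 only, and chr10:117682537-117683730 in the 4 DAY6 and DAY9 libraries and in neither ESC library.

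Of the 5 transient regions of Mdm2, 4 had a highest fold of 5.16 to 8.16, above the 2.85 to 4.43 of the 3 transient regions at the other genes. By the highest score the order differed. It was 186 to 412 in the 5 Mdm2 regions, 597 at the upstream Cdkn1a start, and 94 and 107 in the regions of Trp53cor1 and Efnb3. In Cpm, chr10:117653085-117653573 had a peak in all 6 intermediate libraries, with 5.08 and 3.67 at DAY3, 4.20 and 7.07 at DAY6, and 5.54 and 5.20 at DAY9. It lies next to chr10:117651843-117652449, a lost region that had folds of 10.8 and 6.65 at MEF and no later peak. The MEF region and the intermediate region thus stood side by side and were never listed in the same library. Further along Cpm, chr10:117648163-117648800, had 5.60 and 5.08 at DAY6 and 4.03 and 4.73 at DAY9. Before Mdm2, chr10:117732268-117732902 had 3.61 in DAY6 replicate 2 and 6.00 and 8.16 at DAY9, and chr10:117738479-117739295 had 5.16 and 4.90 in DAY9 alone. The second lost region, chr10:117721441-117721946, had 7.01 and 4.87 at MEF and 2.89 in DAY3 replicate 1.

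**Figure D3:**
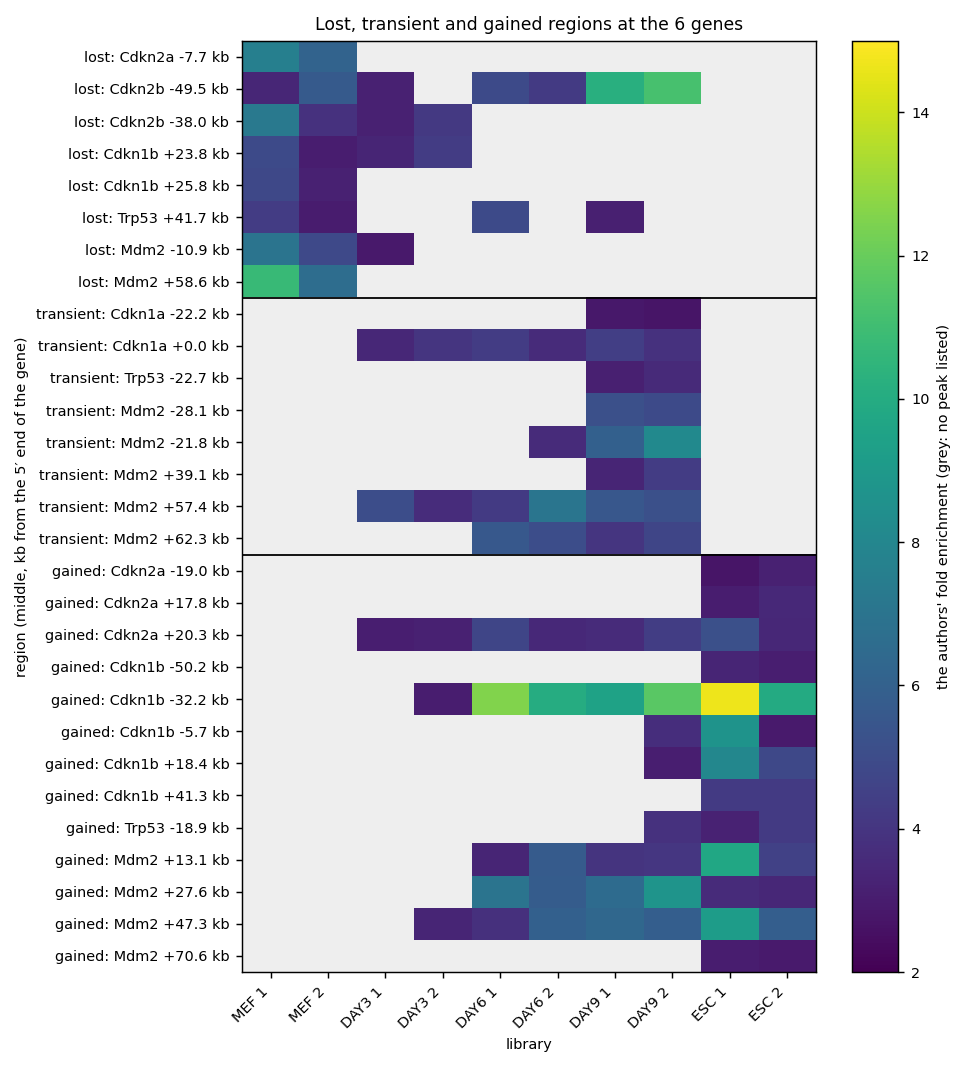
The authors' fold (colour scale, linear) of the 8 lost, 8 transient and 13 gained regions (rows, named by gene and by kb from its 5′ end) in the 10 libraries (columns). Grey cells have no listed peak. Most gained rows begin at DAY6 or in ESC, and the region 32.2 kb before Cdkn1b has the highest folds, up to 14.7.

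Step by step, the 6 windows gained 3 and lost 5 regions from MEF to DAY3, against 5.43% and 10.4% of all regions. From DAY3 to DAY6 they gained 6 and lost 2 (background 5.29% and 1.5%), and 5 of the 6 gains were at Mdm2. From DAY6 to DAY9 they gained 7 and lost 0 (background 5.39% and 0.956%), and 3 of the 7 gains were at Trp53. The DAY3 and DAY9 pairs were close to counting noise, so a peak in both of their libraries asks for less than at the other stages. The background shares carry the same limit. Between DAY9 and ESC they gained 5 and lost 12 (background 9.1% and 9.24%). Of these 12 losses 6 were at Mdm2, 3 at Cdkn1a, 2 at Trp53 and 1 at Cdkn2b. ESC replicate 2 had fewer peaks than replicate 1 in the Mdm2, Cdkn1a and Trp53 windows. A loss required that neither ESC library had a peak, so leaving out 1 of them could not lower the count. It was 14 without ESC replicate 2 and 19 without replicate 1. The part of ESC replicate 2 in the 12 losses was not tested. Regions with a peak in both libraries numbered 29 at MEF, 25 at DAY3, 33 at DAY6, 44 at DAY9 and 33 at ESC. The same shares over all regions are not given here. These counts depend on list length and on how alike the 2 libraries of a stage are, so they are not a result about these genes.

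Peak number in each window was compared over the stages by the share of its sum of squares that lay between stages, with an exact permutation test that used 420 arrangements of the 8 samples. No gene of 21337 tested passed after Benjamini-Hochberg adjustment (background 0.0%, lowest adjusted p = 0.257 in this exact permutation test). The smallest p that this exact permutation test could give was 0.00238, so an adjusted p under 0.05 needed a large number of genes near that value. The lack of adjusted calls therefore says little about any single gene. At an unadjusted p under 0.05, 11.4% of genes had more peaks in ESC than in MEF and 3.49% had fewer. Of the 6 genes, Cdkn1b was past the unadjusted threshold, with 6.5 ± 0.71 peaks in MEF (SD, n = 2), 5.0 at DAY3, 4.0 ± 0 at DAY6, 7.5 at DAY9 and 10.5 ± 0.71 at ESC. Between-stage differences held 97.9% of its sum of squares (exact permutation test, p = 0.00952, adjusted p = 0.277), so the difference did not hold after adjustment. The unadjusted threshold was missed too with lists of equal length (exact permutation test, p = 0.0643), with the higher-scoring 50% of each list (p = 0.186, exact), in a window of 20 kb (p = 0.0833, exact), for base pairs under peaks (p = 0.0714, exact), with the replicate block (p = 0.0667, exact) and without either DAY6 library (p = 0.0667 for each, exact). The lowest mean of Cdkn1b fell at DAY6, when the region over the Gpr19 starts had opened, and DAY3 replicate 1 also had 4 peaks.

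Cdkn2b had 9 and 9 peaks in MEF, 7 and 7 at DAY3, 9 and 8 at DAY6, 10 and 9 at DAY9, and 10 and 11 at ESC (exact permutation test, p = 0.050, adjusted p = 0.299). Cdkn2a had 5 and 7, 5 and 6, 8 and 7, 8 and 7, and 9 and 10 in the same order (exact permutation test, p = 0.117, adjusted p = 0.343). In both, the ESC libraries were not below any other, and the difference did not pass. Mdm2 had 9 and 9 peaks in MEF, 6 and 8 at DAY3, 14 and 14 at DAY6, 15 and 15 at DAY9, and 17 and 10 at ESC (exact permutation test, p = 0.290, adjusted p = 0.482). Every Mdm2 library from DAY6 on was above every MEF and DAY3 library, and the spread within ESC, 13.5 ± 4.95 (SD, n = 2), was the largest after that of Cdkn1a. Trp53 had 7 and 6, 6 and 5, 9 and 7, 11 and 11, and 11 and 7 peaks (exact permutation test, p = 0.371, adjusted p = 0.536). Cdkn1a had 6 and 5, 7 and 6, 8 and 8, 10 and 10, and 11 and 2 (exact permutation test, p = 0.840, adjusted p = 0.893). The median over 21887 gene windows was 6 and 5 at MEF, 4 and 4 at DAY3, 5 and 5 at DAY6, and 7 in each DAY9 and ESC library, so longer lists had more peaks per window in general.

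**Figure D4:**
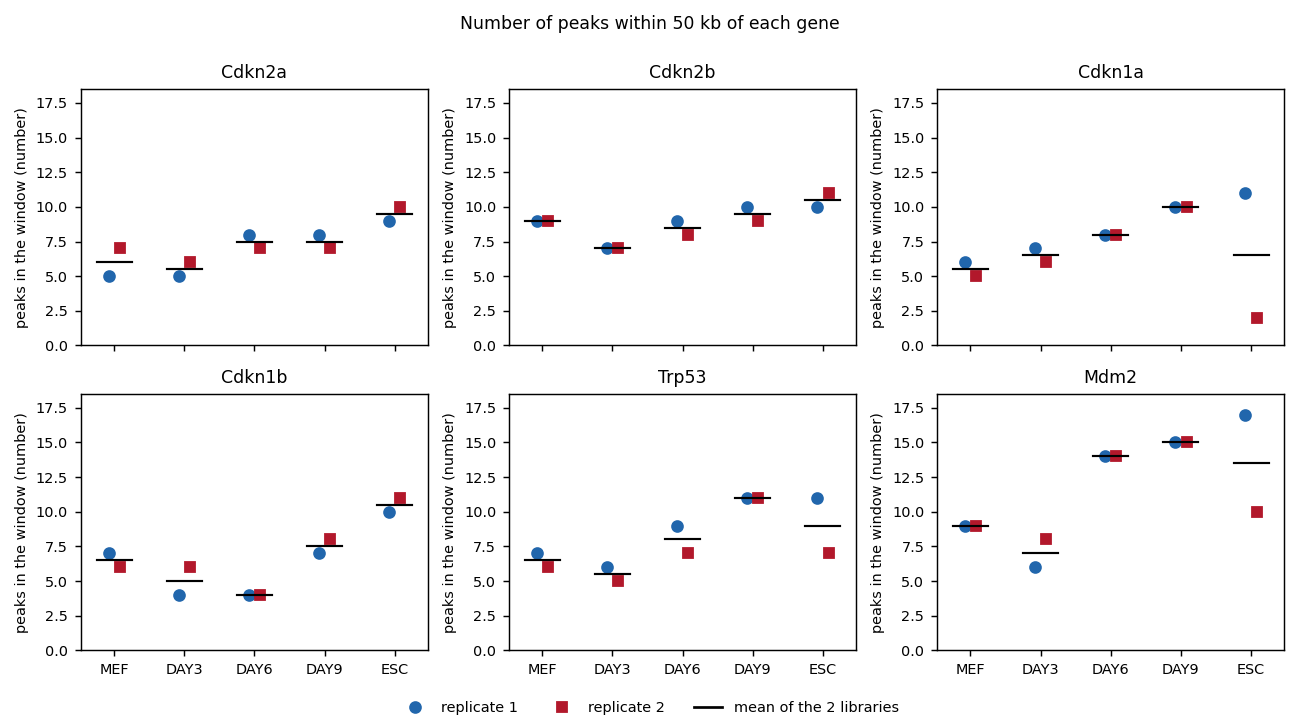
Number of peaks (vertical axis, from 0) in the window of each of the 6 genes by stage, with 1 point for each library and a bar at the mean of the 2 libraries. The points of a stage lie within 2 peaks of each other except in ESC at Cdkn1a (11 and 2), Mdm2 (17 and 10) and Trp53 (11 and 7).

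The other genes of these pathways were taken from 6 lists of 65 genes. None passed after adjustment over all genes. At an unadjusted p under 0.05 in the exact permutation test, 9 of 65 had more peaks in ESC than in MEF and 1 had fewer, beside 11.4% and 3.49% of all genes. Of 18 p53 targets 1 was past it, Rrm2b, a ribonucleotide reductase subunit, with 3 and 2 peaks in MEF, 2 and 2 at DAY3, 5 and 5 at DAY6, 8 and 8 at DAY9, and 5 and 4 at ESC. Of 10 regulators of p53 it was Usp7, a deubiquitinase of Mdm2 and p53, with 9 and 8 peaks in MEF, 14 and 14 at DAY3, 16 and 16 at DAY6, 21 and 20 at DAY9, and 23 and 18 at ESC. The MEF libraries were lowest at Usp7, and the DAY9 libraries highest at Rrm2b.

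Of the 3 other inhibitors of cyclin-dependent kinases it was Cdkn1c, which encodes p57, with 5 and 2 peaks in MEF, 1 and 1 at DAY3, 7 and 6 at DAY6, 12 and 8 at DAY9, and 11 and 11 at ESC. Of 15 cyclin, kinase, retinoblastoma and E2f genes, 4 were past the unadjusted threshold, Rb1, Rbl2, Cdk2 and Cdk4, all with more peaks in ESC. Rb1, the retinoblastoma gene, had 8 and 5 peaks in MEF, 11 and 11 at DAY3, 19 and 20 at DAY6, 20 and 20 at DAY9, and 14 and 14 at ESC. Rbl2, its relative, had at most 7 peaks before ESC and 11 and 12 at ESC. Of 8 repressors of Cdkn2a it was Ezh2, the methyltransferase of Polycomb, with 4 and 4 peaks in MEF, 1 and 1 at DAY3, and 5 and 6 at ESC.

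Of the 11 genes of the senescence secretome and its markers, 2 were past the unadjusted threshold, in opposite directions. Ccl2, a chemokine of senescent and inflamed cells, had 18 and 13 peaks in MEF, 7 and 7 at DAY3, 4 and 4 at DAY6, 2 and 5 at DAY9, and 1 and 3 at ESC, and Glb1, the lysosomal galactosidase of the senescence stain, had 10 and 7 at MEF, 5 and 5 at DAY3, 10 and 7 at DAY6, 14 and 13 at DAY9, and 19 and 18 at ESC. Both were past the unadjusted threshold (exact permutation test, p = 0.0381 and 0.0357) and neither after adjustment (adjusted p = 0.294 and 0.288). The Ccl2 libraries of MEF were above all others. Mmp3 and Mmp13, genes of secreted proteases, had no peak at the start or gene at any stage.

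The genes whose windows were most like each member were found by Pearson's r of the kb under peaks over the 8 samples, which share depth and list length. They were Gm42346 (0.965) and Mthfs (0.964) for Cdkn2a, Eif2b3 (0.967) and Sppl2a (0.966) for Cdkn2b, Tbc1d22b (0.989) and Maco1 (0.982) for Cdkn1a, H2aj (0.992) for Cdkn1b, Casz1 (0.988) and Trim62 (0.988) for Trp53, and Upk1b (0.985) and Apod (0.984) for Mdm2. Like Cdkn1a, with 5.97 and 1.41 kb under peaks in ESC, Tbc1d22b and Maco1 had a low value in ESC replicate 2, at 1.39 and 1.44 kb, beside 4.23 and 4.85 kb in replicate 1. Between 21335 and 21349 windows were searched for each gene, so high values of r over 8 samples describe the choice and carry no test.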

How the data were processed

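The 10 lists, 1 per library, give ATAC-seq peaks in 10 columns without a header. The submitters' processing notes name Bowtie2 2.3.2, deepTools 2.3.6, MACS2 2.1.1 and mm10, with no role or order, and filters, duplicate reads and the transposase offset are not given in the sources used here. The score deposited by the authors is 10 times the −log10 p-value, rounded down. The fold enrichment is the authors' ratio of a summit to its local background, as deposited. The −log10 p- and −log10 q-values are the authors', as deposited, and none of the −log10 p-values was under 5. Numbering of the peak names has gaps, so some called peaks were dropped before deposit, by a criterion not given in the sources used here.

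Lists were merged where peaks shared at least 1 bp, and a library had a region if 1 of its peaks overlapped it. Whole summit pileups were recovered from fold and −log10 p (up to 300, tolerance 0.01), and the noise ratio between libraries was taken at pileups of 100 to 200. Libraries of a stage with a ratio under 2.0 were averaged, so DAY3 and DAY9 have no replicate error. The rules for gained, lost and transient regions took these libraries singly. The labels call the libraries biological replicates but do not tie them to cultures or animals, so p-values measure the spread between these samples. Replicate numbers did not pair the samples (correlations of deviations from -0.010 to 0.022 over 10 pairs of stages). Window counts were tested by exact permutation for all genes with Benjamini-Hochberg adjustment (Python 3.11.15, numpy 2.4.6, pandas 2.3.3, scipy 1.17.1), checked on simulated counts. Starts and sequences are from RefSeq, and all 6 genes matched by symbol. Exons and introns were not analysed here.

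The 6 genes and the lists were chosen with earlier results of these data known. One gene found by the likeness rule is not reported here. Named regions were those at starts and, in each class and window, at most 4 of highest score. Other regions, and the neighbour starts, were named after their values were seen. Alternatives were list length, stricter scores, window width, overlap rule, number of samples, replicate block and leaving out each library.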

Additional observations from a re-analysis of the deposited data

How the results depend on the processing

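No alternative gave an adjusted call for any gene. The smallest p that the exact permutation test could give lay between 0.00106 and 0.00952 over the alternatives, so few calls were possible and their absence is weak evidence of stability. All 6 genes kept a peak at a start in both libraries of every stage with lists of equal length and within 2.5 kb. At Trp53 with equal lists, the peak on the start itself was missing in MEF replicate 2 and both ESC libraries. Other peaks within 1 kb counted in these libraries. Peak number, as the ESC minus MEF difference, was positive for all 6 genes in the full lists. It was -0.5 for Cdkn2b and -0.5 for Cdkn1a with the higher-scoring 50% of each list, and -1.0 for each with lists of equal length. In the full lists it was 3.5 for Cdkn2a, 4.0 for Cdkn1b, 2.5 for Trp53 and 4.5 for Mdm2. Equal lists gave 1.0, 1.5, 0.0 and 0.5 for these, and the stricter scores 1.0, 3.0, 0.5 and 0.5. It was 1.0 for Mdm2 and 0.5 for Trp53 without ESC replicate 1, and 8.0 and 4.5 without ESC replicate 2. Leaving out single libraries gave -3.5 to 5.5 for Cdkn1a, where -3.5 is the value without ESC replicate 1 (exact permutation test, p = 0.0190, adjusted p = 0.380). The range of adjusted p over the Cdkn1a alternatives was 0.366 to 0.947.

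Counts of gained and lost regions were small and moved. Leaving out single libraries gave 3 to 8 gained and 6 to 12 lost from MEF to DAY3, 8 to 13 and 2 to 5 from DAY3 to DAY6, 8 to 13 and 0 to 3 from DAY6 to DAY9, 7 to 17 and 14 to 19 from DAY9 to ESC, and 14 to 32 and 8 to 14 from MEF to ESC. The most gained regions in ESC, 17 and 32, were those without ESC replicate 2. The stricter scores gave 1 gained from MEF to DAY3, 0 lost from DAY3 to DAY6, 4 gained from DAY6 to DAY9, 1 gained from DAY9 to ESC and 4 gained from MEF to ESC. With equal lists, 4 were lost from DAY3 to DAY6, and 2, 1 and 4 gained from DAY6 to DAY9, ESC against DAY9 and ESC against MEF. Requiring 50% coverage left 1 lost from DAY3 to DAY6. In the window of 20 kb, which holds fewer regions, there was 1 lost from MEF to DAY3, 3 gained and 1 lost from DAY3 to DAY6, 2 gained from DAY6 to DAY9, 2 gained and 3 lost from DAY9 to ESC, and 8 gained and 3 lost from MEF to ESC.

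With the replicate block, where a region counts if 1 library differs from 1, gained and lost were 11 and 22 from MEF to DAY3, 20 and 8 from DAY3 to DAY6, 24 and 5 from DAY6 to DAY9, 28 and 27 from DAY9 to ESC, and 41 and 23 from MEF to ESC. The block changed no call after adjustment in peak number. Apart from what fewer peaks, regions or libraries give by construction, the cause of these shifts was not tested. The leave-out of libraries in single windows was chosen after seeing the data.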

Other observations

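With every list held to 45497 peaks, the Cdkn1a window had 3 and 5 peaks at MEF, 7 and 6 at DAY3, 8 and 8 at DAY6, 7 and 8 at DAY9, and 4 and 2 at ESC. All 6 intermediate libraries were then above all 4 libraries of the end stages, which was not so in the full lists. The Mdm2 window had 7 and 8 peaks at MEF, 6 and 8 at DAY3, 9 and 11 at DAY6, 12 and 13 at DAY9, and 9 and 7 at ESC, with the DAY9 libraries highest. The Cdkn2a window, the locus of Ink4a and Arf, stayed between 3 and 6 peaks in all libraries. These values were looked at after the full lists had been seen, and no explanation was tested.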
